A study of Arabidopsis thaliana with 24 samples.

Results

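The genes described here are the 31 genes of Arabidopsis thaliana whose transcripts were higher in warm-grown than in control-grown mock seedlings at 7 days of age and lower at 2 days. They were selected on the mock (DMSO) samples alone: a mean normalised read count of at least 50 over the 12 DMSO samples, a difference of at least 0.7 between 27°C and 22°C at 7 days, and of at most -0.7 at 2 days, both on the scale of log2(group mean + 1). Of 33540 genes in the files, 18342 reached the mean. Of these, 1340 met the 7-day limit, 2659 met the 2-day limit and 31 met both, whereas 149 had the mirror pattern, lowered at 7 days and raised at 2 days by the same limits. The DMSO differences between temperatures therefore describe the selection and were not tested. Tests were confined to the 12 Heatin samples, which had no part in it.

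All samples were whole wild-type Col-0 seedlings, raised on agar medium in short days of 8 h light and 16 h dark and harvested at dawn. Heatin, a small compound found to stimulate hypocotyl growth, was present in the medium at 8.5 µM in 0.1% DMSO, and mock seedlings had 0.1% DMSO only. Heatin and DMSO seedlings were each grown at 27°C or 22°C and collected at 7 or 2 days, which gave 8 groups of 3 samples and 24 samples in all. Each sample pooled RNA of 3 separately harvested batches, so a p-value here measures the spread between such pools, and the records used here do not say whether samples with the same number were grown together. The sample records do not give the stage of development that seedlings had reached, so temperature and stage at a given age cannot be told apart. The paper reports hypocotyl lengths of the sequenced seedlings by group, which were not used here. Values are read counts per gene divided by a depth factor of each sample, called normalised read counts below, and rest on 19705950 to 60575036 reads on genes per sample.

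As background, Arabidopsis seedlings in moderate warmth form long hypocotyls and petioles, a growth response called thermomorphogenesis that depends on PIF transcription factors and on auxin. In the first days a seedling lives on oil and protein laid down in the seed. Oil is broken down to acetyl units in peroxisomes and carried through the glyoxylate cycle towards sugar, until photosynthesis takes over. Late embryogenesis abundant (LEA) proteins accumulate in the drying seed and disappear after germination.

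In the DMSO seedlings that chose them, the members changed with warmth by 0.80 to 3.08 on the log2 scale at 7 days (median 1.12) and by -3.25 to -0.76 at 2 days (median -1.04). All 3 samples at 27°C lay above all 3 at 22°C in 26 of 31 members at 7 days, where 32.4% of the 18342 genes did so. At 2 days all 3 samples at 27°C lay below all 3 at 22°C in 25 of 31 members, against 37.2% of those genes. These counts describe the selection. Just inside the 7-day limit stood AT1G44830 (0.80), AT5G52450 (0.83) and PYL6 (0.83), and just outside it PMZ (0.69), ASPGB1 (0.69) and AT1G32580 (0.68). Just inside the 2-day limit stood GH3.3 (-0.76), AT5G17960 (-0.78) and AT5G66780 (-0.79), and just outside it RUG3 (-0.69), HMT3 (-0.64) and AT3G58270 (-0.64). The least abundant members were AT4G36600, AT5G17960 and AT3G21380, with DMSO means of 50.7, 51.4 and 54.7, and BGLU19 just missed the limit at 49.8. With each DMSO sample left out in turn, 18 members met the rule every time. AT4G36600 met it in only 4 of 12 such runs, AT5G17960 and AT5G66780 in 7, and AT1G44830 in 9.

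**Figure D1:**
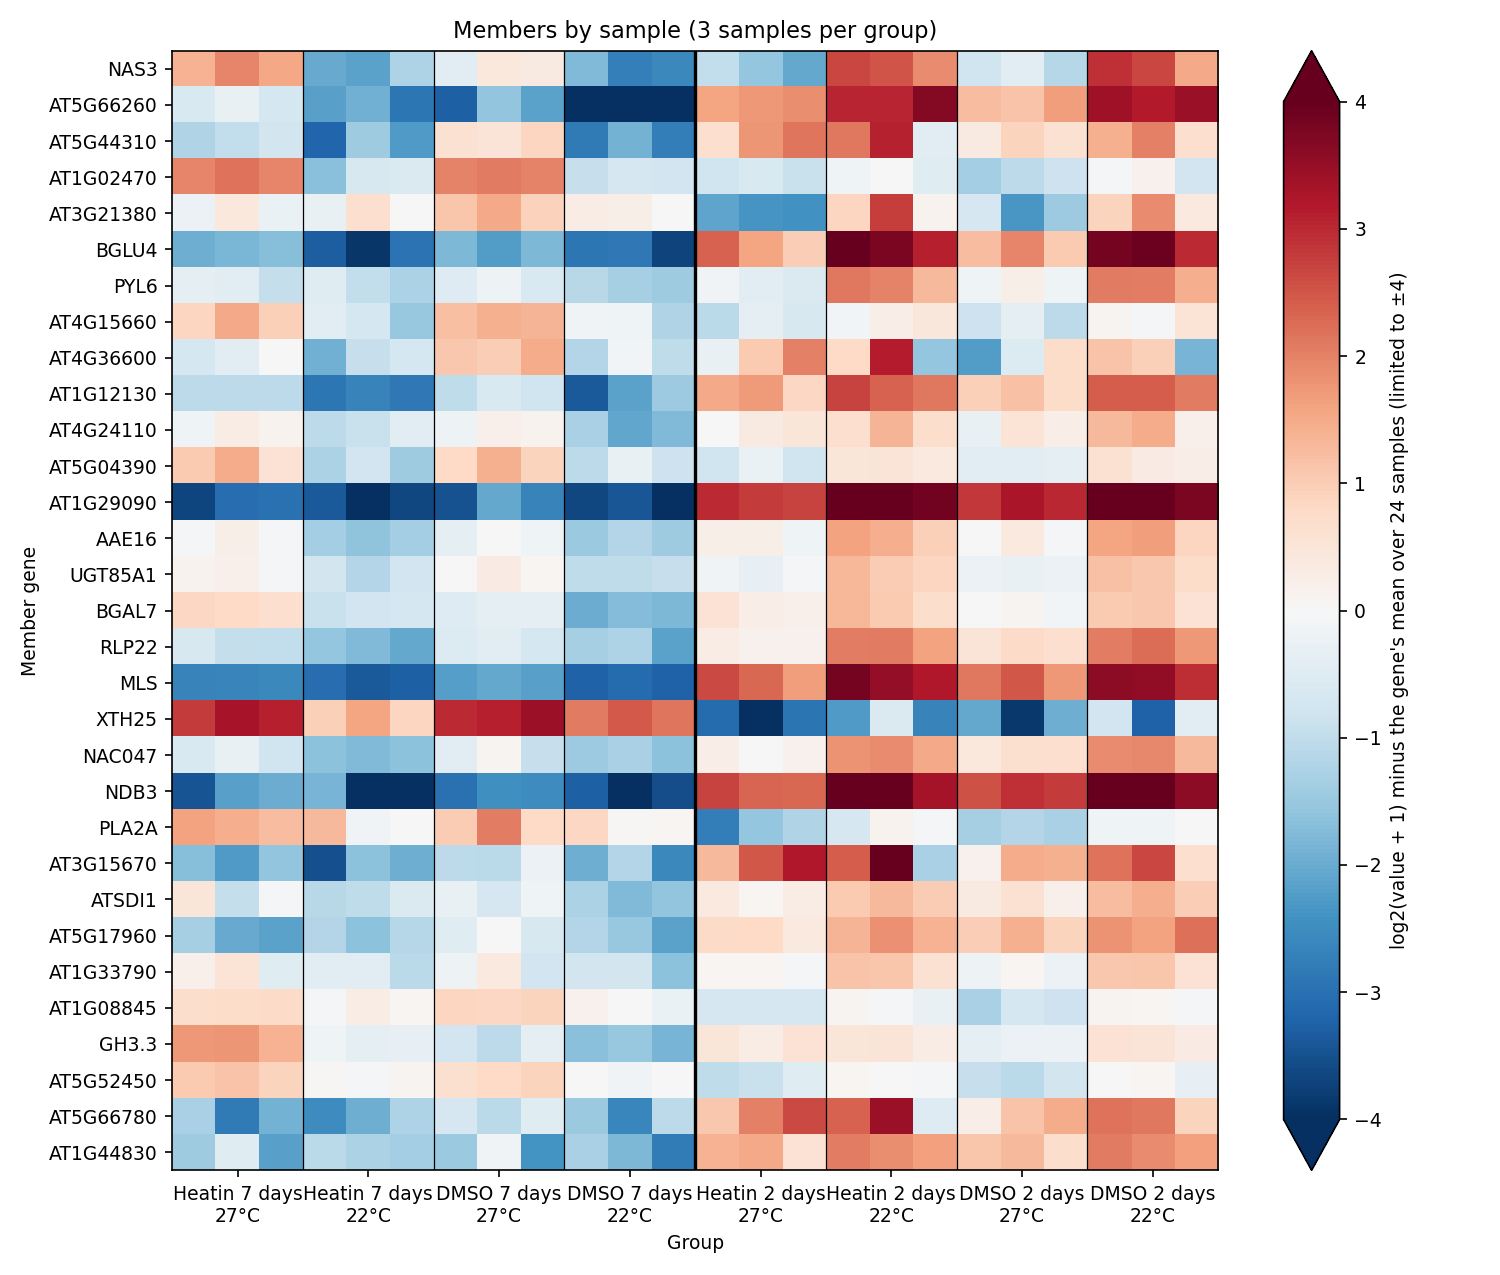
Heat map of the 31 members (rows, ordered by the DMSO difference of changes, 7 days minus 2 days) in the 24 samples (columns, 3 per group), coloured by log2(value + 1) minus the gene's mean over all samples. In most rows the warm 7-day columns are redder than the 22°C columns beside them, and the warm 2-day columns are paler or bluer than the 22°C columns.

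Most members repeated both directions in the Heatin seedlings, in samples that had not chosen them. A batch shared with same-numbered DMSO samples was not tested. At 7 days 22 of 31 members were called higher at 27°C (limma, Benjamini-Hochberg adjusted p below 0.1, over 23408 genes), whereas 26.8% of all genes tested were. At 2 days 24 of 31 were called lower at 27°C, against 32.9% of all genes. Both calls together were made for 21 of 31 members and for 2.15% of all genes. Among the 18342 genes that met the mean limit of the rule, these shares were 30.1% at 7 days, 36.3% at 2 days and 2.51% for both. In the opposite directions, 7267 of the 23408 genes were called lower at 7 days and 7802 higher at 2 days. No member was called in the opposite direction at either age in the fit of all 12 samples. AT5G17960, however, was called lower at 7 days without the second 22°C sample or the first 27°C sample of that age. The median member changed by 1.01 at 7 days and by -1.05 at 2 days on the log2 scale, while the median gene changed by -0.03 and 0.00. The difference between the ages in the warmth effect, tested directly, was above 0 in 25 of 31 members, against 19.3% of all genes, with a median of 2.24. Of the 18342 genes that met the mean limit, 21.5% were so called.

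Genes chosen by only one limit serve as a measure of how often a DMSO change was repeated. Of the 1309 genes raised at 7 days but not lowered at 2 days in DMSO seedlings, 94.3% were called higher at 27°C in Heatin seedlings at 7 days. Of the 2628 genes lowered at 2 days but not raised at 7 days, 99.3% were called lower at 27°C in Heatin seedlings at 2 days. For the 31 members these shares were 71.0% at 7 days and 77.4% at 2 days. The 10 members that lacked one or both calls were the 4 genes annotated as LEA proteins, GH3.3, AT1G44830, NDB3, AT5G17960, PYL6 and AT3G21380.

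**Figure D2:**
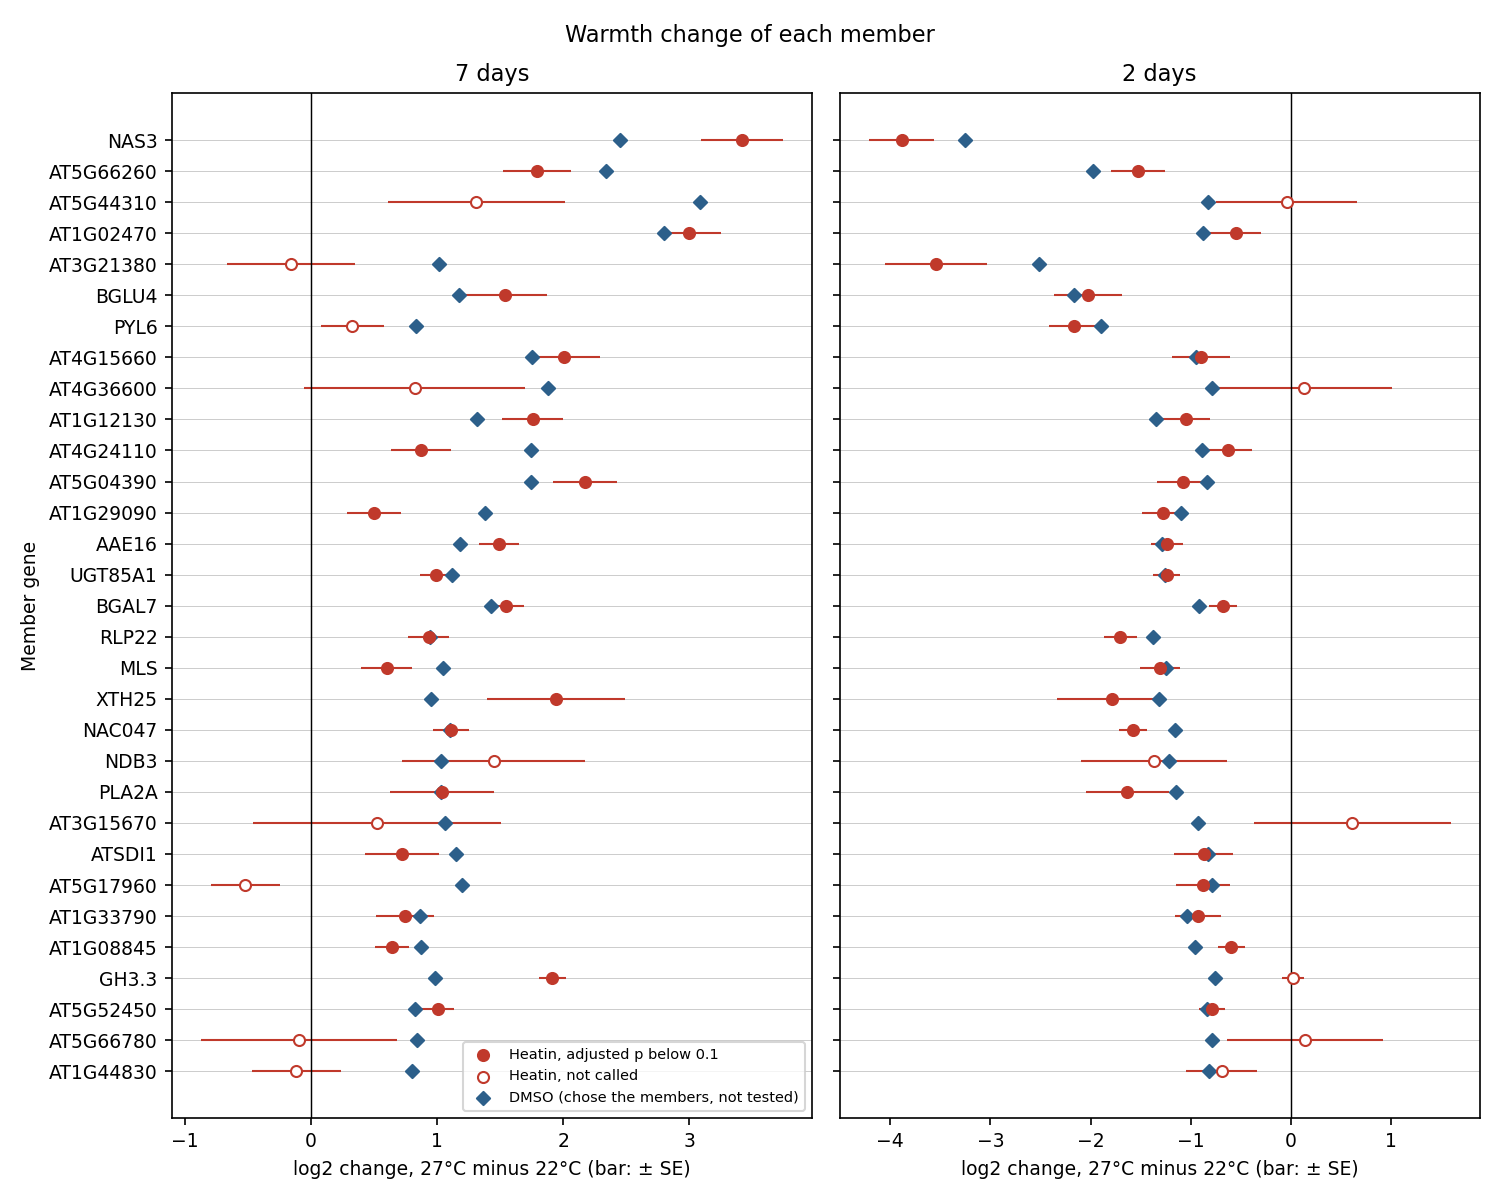
Log2 change with warmth (27°C minus 22°C) of each member at 7 days (left) and 2 days (right). Red points are Heatin seedlings with the standard error of the limma fit (filled where the adjusted p was below 0.1, n = 3 per group), and blue diamonds are the DMSO differences that chose the members. At 7 days 22 filled points lie right of 0, and at 2 days 24 filled points lie left of 0.

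Markers of several cell types moved with temperature in the same seedlings, in both directions. Root hair markers were lower at 27°C in 8 of 8 cases at each age, with summed values in Heatin seedlings of 90.3 to 113 at 27°C against 443 to 672 at 22°C at 7 days, and of 1288 to 4139 against 13083 to 24312 at 2 days. Leaf mesophyll markers were lower at 27°C in 5 of 5 cases at 7 days, where their sums were 669593 to 761174 at 27°C and 1542182 to 1685679 at 22°C, and overlapped between temperatures at 2 days. Xylem markers were higher at 27°C in 5 of 6 cases at 2 days, with sums of 6172 to 7287 at 27°C against 2306 to 3311 at 22°C, and 1 was lower at 7 days. Phloem markers were higher in 3 of 4 cases at 7 days and 4 of 4 at 2 days, and root endodermis and cap markers were lower in 2 of 5 cases at 7 days and higher in 4 of 5 and lower in 1 at 2 days. Of 7 guard cell markers, 4 were lower at 7 days, and 3 were higher and 2 lower at 2 days. In RNA of whole seedlings, fewer cells of a type and less RNA per cell cannot be told apart, and the part of these shifts in the members' changes was not tested.

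Malate synthase, MLS, is a glyoxylate cycle enzyme that joins acetyl-CoA to glyoxylate, and it was by far the most abundant member, at 12189 normalised read counts per kb of exon on average. MLS stood at 981, 1009 and 1061 normalised read counts at 27°C, against 761, 614 and 646 at 22°C, in Heatin seedlings of 7 days. At 2 days the counts were 39319.7, 30821 and 20002 normalised read counts at 27°C, against 89494, 71205 and 57362 at 22°C. The groups did not overlap at either age, and the level at 2 days was many times that at 7 days. The fitted change was 0.60 ± 0.20 at 7 days (log2 fold change ± SE of the limma fit, n = 3 per group, as throughout; limma adjusted p = 0.0231) and -1.30 ± 0.20 at 2 days (limma adjusted p = 8.27e-05). The DMSO samples of MLS at 7 days held 1351, 1534 and 1378 normalised read counts at 27°C, against 660.3, 736 and 659 at 22°C. At 2 days DMSO seedlings had 27188, 35258 and 20846 normalised read counts at 27°C, against 75706, 73845 and 48420.1 at 22°C. The order of the groups was thus the same with and without Heatin.

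Of the 20 genes listed for seed oil mobilization, 14 were called higher at 27°C at 7 days in Heatin seedlings and 1 lower, while at 2 days 8 were called lower and 8 higher. For this list and those below, 26.8% of all genes tested were called higher at 7 days and 32.9% lower at 2 days. Both directions of the members' pattern were called for MLS, CSY3, LACS6 and LACS7, beside 2.15% of all genes. CSY3, a peroxisomal citrate synthase, changed by 0.62 at 7 days and -0.44 at 2 days, and LACS7, which activates fatty acids in peroxisomes, by 0.32 and -0.62. ICL, isocitrate lyase, which precedes malate synthase in the same cycle, differed from it at 2 days, with changes of 2.12 at 7 days and 0.63 at 2 days, both called higher (limma adjusted p = 3.47e-05 and 0.065). AAE16, an acyl-activating enzyme of the AMP-dependent synthetase family that is not on this list, followed the pattern closely. At 7 days Heatin seedlings had 809, 988 and 819 normalised read counts at 27°C, against 326, 272 and 328 at 22°C for AAE16. AAE16 in Heatin seedlings of 2 days had 989.6, 989 and 739 normalised read counts at 27°C, against 2561, 2279 and 1631 at 22°C. Groups were separate at both ages, with fitted changes of 1.49 ± 0.16 and -1.24 ± 0.16 (limma adjusted p = 7.08e-06 and 1.76e-05).

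AT1G29090 and PLA2A were less uniform at 7 days. AT1G29090, annotated as a cysteine proteinase and the second most abundant member at 3135 normalised read counts per kb, had 54.6, 85.5 and 88.95 normalised read counts at 27°C, against 69.04, 37.2 and 56.5 at 22°C at 7 days. At 2 days it had 5602, 4943 and 4620.1 normalised read counts at 27°C, against 12443, 14217 and 10283 at 22°C. The 7-day groups overlapped and the 2-day groups were separate. The change at 7 days was 0.50 ± 0.21, with a limma adjusted p of 0.0666 that passed the threshold only narrowly and was 0.365 in a fit of all 24 samples, and at 2 days it was -1.28 ± 0.21 (limma adjusted p = 1.62e-04). PLA2A, a patatin-related lipid acyl hydrolase, had 147, 131 and 113 normalised read counts at 27°C, against 118, 43.4 and 48.1 at 22°C at 7 days. One 22°C sample reached the warm range, and the change of 1.04 ± 0.41 had a limma adjusted p of 0.05. At 2 days its change was -1.63 ± 0.41, and the groups were separate.

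NAS3, a nicotianamine synthase, makes a chelator that carries iron, zinc and copper within the plant, and it had the largest difference of all members between the ages. NAS3 stood at 81.1, 122 and 90.6 normalised read counts at 27°C, against 6.77, 6.2 and 12.5 at 22°C, in Heatin seedlings of 7 days. The Heatin samples of NAS3 at 2 days held 14.96, 9.7 and 6.66 normalised read counts at 27°C, against 200, 179.9 and 115 at 22°C. The groups were wide apart at both ages and in opposite order. Its change was 3.42 ± 0.33 at 7 days (limma adjusted p = 3.12e-06) and -3.89 ± 0.33 at 2 days (limma adjusted p = 7.21e-07), a difference of 7.30 ± 0.46. DMSO seedlings had 21.8, 41.6 and 39.1 normalised read counts at 27°C, against 8.19, 3.78 and 4.31 at 22°C at 7 days and 17.1, 22.7 and 13.3 normalised read counts at 27°C, against 239.9, 202 and 88.6 at 22°C at 2 days. The other nicotianamine synthases did not show this pattern. NAS4 changed by -1.94 at 7 days and -1.05 at 2 days and NAS2 by -1.87 and -2.14, all called lower, while NAS1 was called lower at 7 days (-0.71) and higher at 2 days (0.71), with limma adjusted p-values of 0.0582 and 0.0496. Of 25 tested genes on the iron list, 6 were called higher and 7 lower at 7 days, and 6 lower and 14 higher at 2 days. On that list NAS3 alone combined higher at 7 days with lower at 2 days, beside 2.15% of all genes.

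ATSDI1 (SULFUR DEFICIENCY-INDUCED 1), a tetratricopeptide repeat protein whose transcript is known to accumulate when sulfur is short, moved less. At 7 days Heatin seedlings had 74.8, 26.9 and 52.2 normalised read counts at 27°C, against 24.4, 26.04 and 35.5 at 22°C for ATSDI1. ATSDI1 in Heatin seedlings of 2 days had 69.8, 56.99 and 65.6 normalised read counts at 27°C, against 111, 134 and 110.2 at 22°C. The 2-day groups were separate, and at 7 days 1 warm sample lay within the 22°C range. Its changes were 0.72 ± 0.29 and -0.87 ± 0.29 (limma adjusted p = 0.0533 and 0.0191). On the list of 14 sulfur genes, 11 were called higher and 1 lower at 7 days, and 3 lower and 5 higher at 2 days. BGLU28, a beta-glucosidase that is also induced by sulfur shortage, was the other gene on that list called in both directions, with 1.34 at 7 days and -0.89 at 2 days. Over all genes 2.15% were so called. LSU1 and LSU2, further transcripts of sulfur shortage, were called higher at 7 days (1.25 and 1.49) and not called at 2 days (-0.03 and 0.36).

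GH3.3, an enzyme that joins auxin to amino acids and whose transcript is induced by auxin, was the clearest exception. GH3.3 stood at 5272, 5387 and 4149.7 normalised read counts at 27°C, against 1424, 1204 and 1282 at 22°C, in Heatin seedlings of 7 days. The 3 warm values were the highest of GH3.3 in the series, and the 7-day change was 1.91 ± 0.11 (limma adjusted p = 7.09e-08). DMSO seedlings had 943, 776 and 1225 normalised read counts at 27°C, against 495, 553 and 438 at 22°C at 7 days. The Heatin samples of GH3.3 at 2 days held 2239.7, 1936 and 2403 normalised read counts at 27°C, against 2239, 2273 and 1976 at 22°C. The groups overlapped, and the change of 0.02 ± 0.11 was not called (limma adjusted p = 0.907). DMSO seedlings had 1229, 1352 and 1345 normalised read counts at 27°C, against 2356, 2266 and 2012 at 22°C at 2 days. With both ages in view, Heatin samples exceeded all DMSO samples of the same age and temperature in every group except 22°C at 2 days, where the ranges overlapped.

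AT5G66260, a SAUR-like small auxin-up RNA gene, had few reads at 7 days. At 7 days Heatin seedlings had 14.03, 17.4 and 13.1 normalised read counts at 27°C, against 4.06, 4.96 and 2.09 at 22°C for AT5G66260. AT5G66260 in Heatin seedlings of 2 days had 66.1, 75.2 and 81.8 normalised read counts at 27°C, against 185, 188 and 289.7 at 22°C. The groups were separate at both ages. The changes were 1.79 ± 0.27 at 7 days and -1.53 ± 0.27 at 2 days (limma adjusted p = 1.11e-04 and 2.53e-04), and the 7-day groups held 36 and 8 reads at 27°C and 22°C, a ratio per unit of depth of 3.64 (95% exact interval 1.67 to 9.08, for counting error only). In DMSO seedlings all 3 samples at 22°C were at 0 at 7 days, against 14 reads at 27°C. The warm mean of 4.06 was below the 4.69 that 3 reads per sample would give at 22°C, so no fold change is given. Of 112 tested genes on the auxin response list, 31 were called higher and 19 lower at 7 days, whereas at 2 days 69 were called higher and 14 lower. AT5G66260 alone on that list was called in both of the members' directions, beside 2.15% of all genes.

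**Figure D3:**
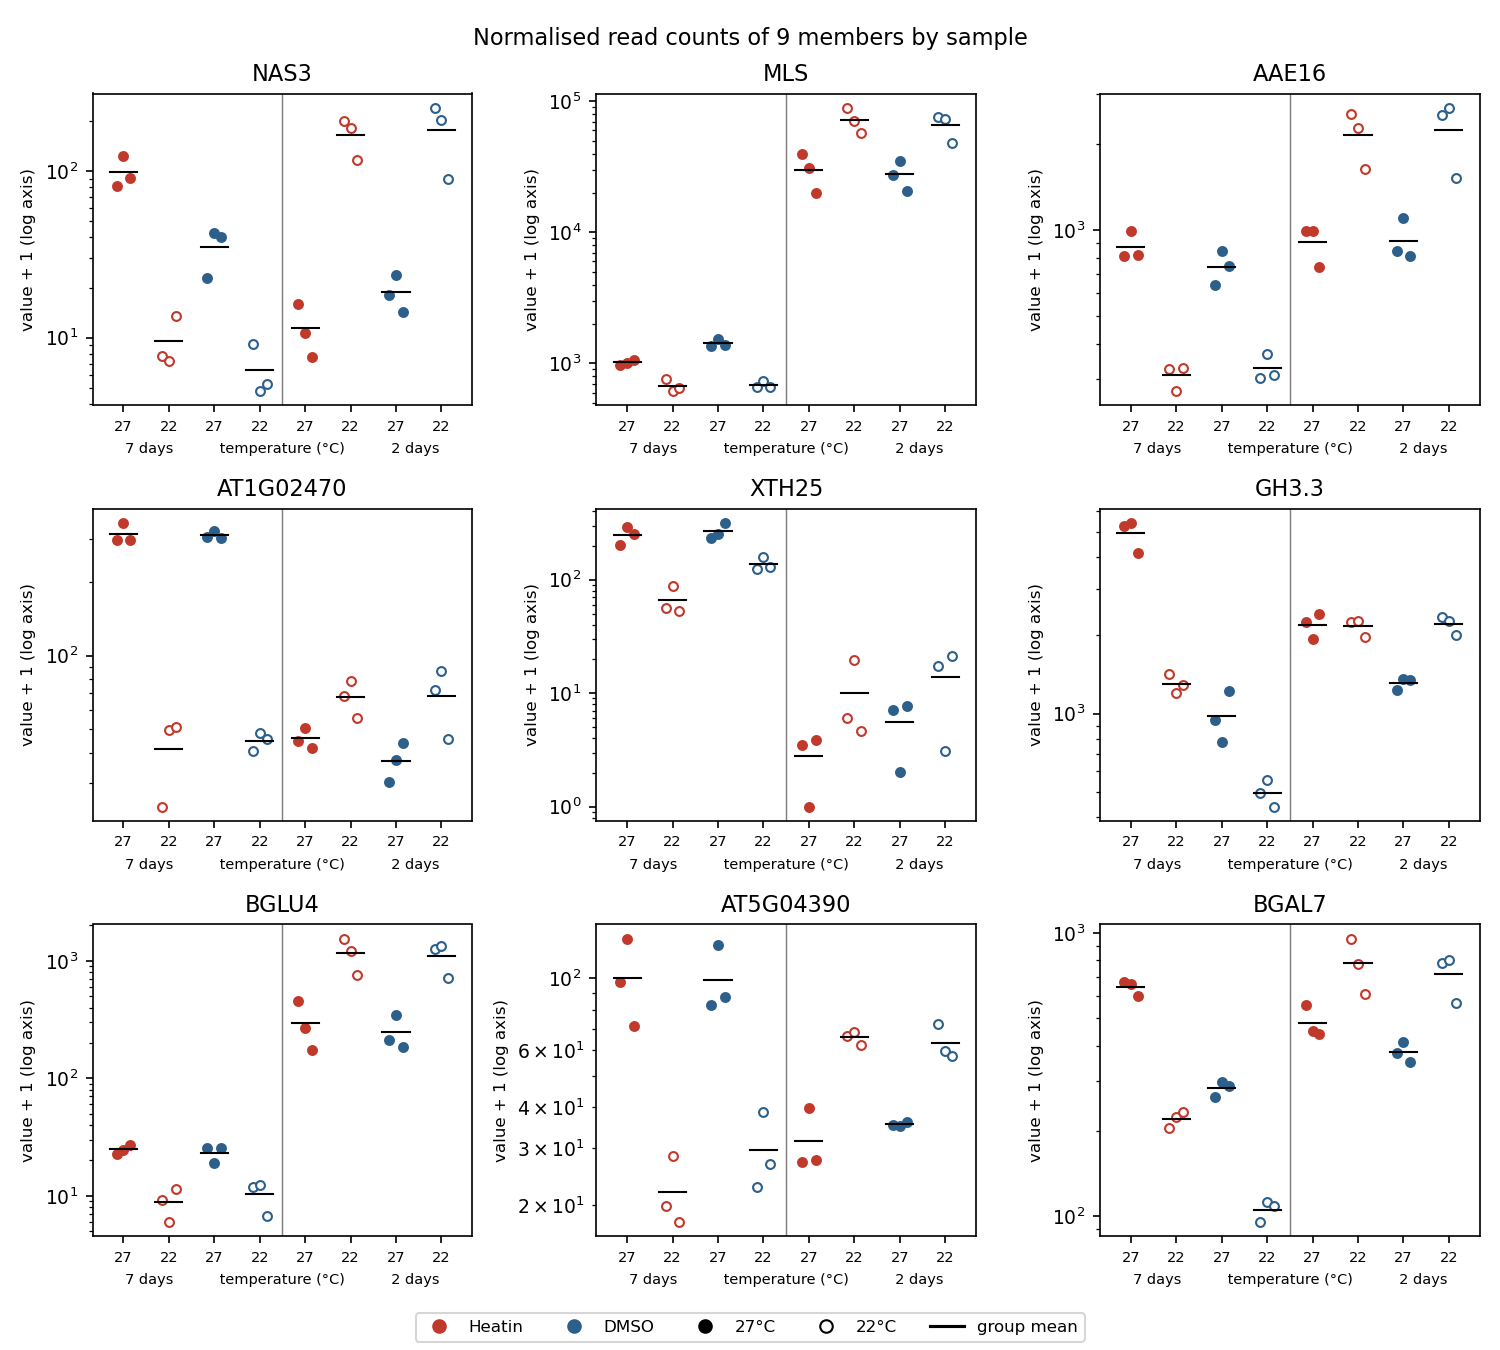
Normalised read counts (value + 1, log axis) of 9 members in each of the 24 samples. Red is Heatin, blue is DMSO, filled points are 27°C, open points are 22°C and black lines are group means (n = 3), with 7-day groups left of 2-day groups. NAS3 shows the warm group above the 22°C group at 7 days and below it at 2 days, and GH3.3 in Heatin seedlings shows the difference at 7 days only.

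XTH25, a xyloglucan endotransglucosylase of the cell wall, was one of the members that were higher at 7 days than at 2 days. XTH25 stood at 203, 288 and 254 normalised read counts at 27°C, against 55.5, 86.8 and 52.3 at 22°C, in Heatin seedlings of 7 days. The Heatin samples of XTH25 at 2 days held 2.49, 0 and 2.85 normalised read counts at 27°C, against 5.1, 18.5 and 3.65 at 22°C. The groups were separate at both ages. At 7 days the second sample was the highest at each temperature, as it was for the summed seed markers given below with the LEA genes, and the part of seed RNA was not tested. The 2-day Heatin groups held only 5 reads at 27°C and 41 at 22°C, a ratio per unit of depth of 0.183 (95% exact interval 0.0565 to 0.463, for counting error only), and 31 of those 41 reads were in 1 sample. The fitted changes in Heatin seedlings were 1.94 ± 0.54 and -1.79 ± 0.54 (limma adjusted p = 0.00893 and 0.0116). In the DMSO samples of 2 days, which chose it, XTH25 had only 13 reads at 27°C and 52 at 22°C, and the groups overlapped. Among 55 tested cell wall loosening genes, 12 were called higher and 27 lower at 7 days, and 22 lower and 22 higher at 2 days. Of these, XTH25 alone was called in both of the members' directions, beside 2.15% of all genes. BGAL7, a beta-galactosidase of a family that acts on cell wall galactans, had 669, 662 and 597 normalised read counts at 27°C, against 203, 223 and 232 at 22°C at 7 days. At 2 days it had 557, 449.8 and 438 normalised read counts at 27°C, against 954, 779 and 609 at 22°C. Groups were separate at both ages, with changes of 1.55 ± 0.14 and -0.68 ± 0.14 (limma adjusted p = 2.12e-06 and 8.87e-04).

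Among enzymes that add or remove sugars, BGLU4, a beta-glucosidase, was high only at 2 days. At 7 days Heatin seedlings had 21.8, 23.8 and 26.1 normalised read counts at 27°C, against 8.12, 4.96 and 10.5 at 22°C for BGLU4. BGLU4 in Heatin seedlings of 2 days had 451, 266 and 174 normalised read counts at 27°C, against 1542, 1211 and 761 at 22°C. The groups were separate at both ages, with changes of 1.54 ± 0.33 and -2.03 ± 0.33 (limma adjusted p = 0.00176 and 1.50e-04). With edgeR on recovered reads the 7-day change was not called (adjusted p = 0.101). UGT85A1, a UDP-glycosyltransferase that glucosylates cytokinins, had little spread between samples. UGT85A1 stood at 1182, 1254 and 1040.5 normalised read counts at 27°C, against 646, 479 and 629 at 22°C, in Heatin seedlings of 7 days. At 2 days the samples held 983, 868 and 1045 normalised read counts at 27°C, against 2722, 2187 and 1985 at 22°C. Its changes were 0.99 ± 0.13 and -1.24 ± 0.13 (limma adjusted p = 4.11e-05 and 4.00e-06).

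The carbohydrate-binding lectins of the group differed. AT1G33790, of the jacalin family, was called in both directions, with changes of 0.74 ± 0.23 at 7 days and -0.93 ± 0.23 at 2 days (limma adjusted p = 0.016 and 0.0034), although 3.15% of the 50-base windows of its exons occur elsewhere in the genome. AT3G21380, annotated as a mannose-binding lectin, was called at 2 days only. The Heatin samples of AT3G21380 at 7 days held 29.6, 47.5 and 29.4 normalised read counts at 27°C, against 28.4, 57.05 and 35.5 at 22°C. These overlapped, and the change of -0.16 ± 0.51 was not called (limma adjusted p = 0.82), whereas the DMSO samples had 77.8, 103 and 67.7 normalised read counts at 27°C, against 43.7, 41.5 and 35.9 at 22°C. At 2 days Heatin samples had 7.48, 6.06 and 5.7 normalised read counts at 27°C, against 64.3, 244 and 38.7 at 22°C. Here the groups were wide apart, and the change was -3.54 ± 0.51 (limma adjusted p = 4.57e-05). Summed seed markers, described with the LEA genes below, had the same order as AT3G21380 among the 22°C samples at 2 days, and at 7 days the second sample was the highest for both at either temperature. The 2-day call was also made in each of the 12 fits with 1 Heatin sample left out. The part of seed RNA in these values was not tested.

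Regulators formed a further set. NAC047, a NAC transcription factor linked to ethylene-driven leaf movement, had 142, 179 and 125 normalised read counts at 27°C, against 70.4, 63.2 and 69 at 22°C at 7 days. At 2 days Heatin seedlings had 263, 222 and 246 normalised read counts at 27°C, against 758, 812 and 623 at 22°C for NAC047. The groups were separate at both ages, and the changes of 1.11 ± 0.14 and -1.58 ± 0.14 had limma adjusted p-values of 3.04e-05 and 1.17e-06. AT5G04390, a C2H2 zinc finger protein, changed by 2.17 ± 0.26 and -1.08 ± 0.26, both called, with no overlap between groups. RLP22, a receptor-like protein of the cell surface, changed by 0.93 ± 0.16 and -1.70 ± 0.16, also both called and without overlap. It shares 175 bases with a gene on the opposite strand, and counting took no account of strand.

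PYL6, a receptor of the stress hormone abscisic acid, was called at 2 days only. PYL6 in Heatin seedlings of 7 days had 98.2, 96.6 and 65.3 normalised read counts at 27°C, against 92.05, 64.5 and 52.3 at 22°C. The groups overlapped, and the change of 0.33 ± 0.25 was not called (limma adjusted p = 0.292). PYL6 stood at 117, 95.8 and 86.5 normalised read counts at 27°C, against 556, 507 and 318 at 22°C, in Heatin seedlings of 2 days. Here the groups were wide apart, with a change of -2.17 ± 0.25 (limma adjusted p = 7.12e-06). A list of 38 tested genes of abscisic acid synthesis, breakdown and signalling does not hold PYL6. Of these, 15 were called higher and 7 lower at 7 days, and 4 lower and 24 higher at 2 days. Only RD20 was called in both of the members' directions, beside 2.15% of all genes. AT1G44830, an AP2/ERF-type DNA-binding protein nearest to the 7-day limit of the rule, was called at neither age. It changed by -0.12 ± 0.35 at 7 days and -0.69 ± 0.35 at 2 days (limma adjusted p = 0.807 and 0.106). Under several alternatives, given at the end, it was called lower at 2 days.

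The 4 members annotated as LEA proteins, AT5G44310, AT4G36600, AT3G15670 and AT5G66780, were called at neither age in Heatin seedlings, although AT5G44310 was called higher at 7 days in a fit of all 24 samples and in 3 of the fits with 1 sample left out. Their promoters are shown because the hexamer G-box (CACGTG) and the core of the abscisic acid response element (ACGTG), sites known to be bound by bZIP factors in seeds, lie in them. Each run is the 250 bases before the annotated gene start in RefSeq TAIR10.1, 5′ to 3′ on the strand of the gene, with every ACGTG on either strand in capitals together with the C that completes a G-box. A G-box holds the shorter core on both strands, so each G-box counts for both motifs. GH3.3, whose 2-day change was not seen with Heatin, and NAS3, with the largest difference between the ages, are added for comparison. The windows are chr5:17849537-17849786 (minus strand) for AT5G44310, chr4:17263314-17263563 (plus) for AT4G36600, chr3:5310989-5311238 (minus) for AT3G15670, chr5:26663250-26663499 (plus) for AT5G66780, chr2:9866563-9866812 (minus) for GH3.3 and chr1:2984579-2984828 (plus) for NAS3.
AT5G44310: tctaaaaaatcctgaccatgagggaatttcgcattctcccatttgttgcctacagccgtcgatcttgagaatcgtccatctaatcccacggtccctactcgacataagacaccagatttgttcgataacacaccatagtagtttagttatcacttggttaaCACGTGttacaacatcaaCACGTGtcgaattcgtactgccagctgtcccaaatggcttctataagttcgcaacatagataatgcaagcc
AT4G36600: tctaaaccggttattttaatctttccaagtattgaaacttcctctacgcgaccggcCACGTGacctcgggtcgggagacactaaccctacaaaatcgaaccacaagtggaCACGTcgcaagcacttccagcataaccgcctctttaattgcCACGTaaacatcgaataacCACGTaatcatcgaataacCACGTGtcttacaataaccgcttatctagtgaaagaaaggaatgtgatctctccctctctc
AT3G15670: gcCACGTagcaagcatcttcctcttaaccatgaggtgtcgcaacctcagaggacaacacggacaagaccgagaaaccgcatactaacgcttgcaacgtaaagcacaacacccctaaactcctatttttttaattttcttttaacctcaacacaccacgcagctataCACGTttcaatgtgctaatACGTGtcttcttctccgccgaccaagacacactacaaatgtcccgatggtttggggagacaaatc
AT5G66780: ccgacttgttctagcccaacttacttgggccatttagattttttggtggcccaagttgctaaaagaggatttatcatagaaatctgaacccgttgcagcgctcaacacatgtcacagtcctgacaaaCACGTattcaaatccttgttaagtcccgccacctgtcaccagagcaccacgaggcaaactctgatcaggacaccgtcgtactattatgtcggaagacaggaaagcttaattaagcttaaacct
GH3.3: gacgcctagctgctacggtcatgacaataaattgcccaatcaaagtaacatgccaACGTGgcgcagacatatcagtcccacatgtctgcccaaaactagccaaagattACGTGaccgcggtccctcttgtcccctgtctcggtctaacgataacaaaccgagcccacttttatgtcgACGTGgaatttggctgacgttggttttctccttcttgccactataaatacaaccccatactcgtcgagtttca
NAS3: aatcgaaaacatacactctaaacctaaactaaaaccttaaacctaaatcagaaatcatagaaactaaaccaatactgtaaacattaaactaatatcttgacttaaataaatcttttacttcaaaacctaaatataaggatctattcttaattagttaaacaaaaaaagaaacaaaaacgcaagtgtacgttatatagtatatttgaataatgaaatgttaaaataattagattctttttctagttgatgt

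AT4G36600 and AT5G44310 each hold 2 G-boxes, in AT5G44310 at 89 and 71 bases before the start. AT3G15670 holds 3 matches to the core without a G-box, AT5G66780 holds 1, GH3.3 holds 3 and NAS3 none. Over the group, a G-box was found in 3 of 31 promoters (7.24% of 22595 promoters of tested genes), the third being AT1G12130, and the core in 12 of 31 (23.99% of all). The W-box core TTGAC, known as a site of WRKY factors, was found in 18 of 31 (45.2% of all). The RY core CATGCA was in 2 (8.14%), the heat shock element core GAANNTTC in 3 (9.38%), the DRE core CCGAC in 3 (12.7%), the I-box GATAAG in 4 (12.5%), the site II motif TGGGCC in 2 (15.5%), and the RY repeat CATGCATG (0.713%), the evening element AAATATCT (4.85%) and the telo-box AAACCCTA (3.68%) in none. A match here is a run of letters and not a measured binding site.

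The samples of the LEA genes spread widely. The Heatin samples of AT3G15670 at 2 days held 328, 746 and 1233 normalised read counts at 27°C, against 719, 2174 and 53.3 at 22°C. At 2 days Heatin seedlings had 71.04, 153 and 199.7 normalised read counts at 27°C, against 193, 379 and 32.1 at 22°C for AT5G44310. AT5G66780 in Heatin seedlings of 2 days had 109.7, 207 and 325 normalised read counts at 27°C, against 268, 568 and 35.8 at 22°C. At 22°C the second sample was the highest and the third the lowest of all 6 for each of these genes, and the groups overlapped. AT4G36600 showed the same order at 22°C, with 31.2, 80.03 and 159 normalised read counts at 27°C, against 67.3, 347 and 12.4 at 22°C. The fitted 2-day changes were 0.61 ± 0.98 for AT3G15670, -0.04 ± 0.70 for AT5G44310, 0.14 ± 0.77 for AT5G66780 and 0.13 ± 0.87 for AT4G36600, with limma adjusted p-values of 0.615 to 0.964. Without the third 22°C sample they were -0.90, -1.06, -0.999 and -1.05, and AT5G44310 alone of the 4 was then called lower. At 7 days the fitted changes were 0.52 ± 0.98, 1.31 ± 0.70, -0.10 ± 0.77 and 0.82 ± 0.87 in the same order, against DMSO differences of 1.06, 3.08, 0.84 and 1.88.

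Seed marker transcripts had the same order as the LEA members among the Heatin samples of 2 days at 22°C, but not at 27°C. The summed value of 10 seed storage, oil body and EM genes in Heatin seedlings at 2 days was 1279, 2615 and 1806 at 27°C, against 1794, 5183 and 204 at 22°C, so that the same 22°C samples were highest and lowest. At 27°C the second sample had the highest sum, whereas the third was the highest for each LEA member. All 10 markers were above 0 in each of the 12 samples of 2-day seedlings, and none was called with warmth at 2 days. In DMSO seedlings the sums were 2403, 505 and 3306 at 27°C, against 688, 1077 and 922 at 22°C, while the LEA members were lower at 27°C on average. The second DMSO sample at 27°C had the lowest sum of its group but the highest values of AT3G15670 (379) and AT5G44310 (82.7). AT4G36600 and AT5G66780 were highest in the third sample there, as the sum was. At 7 days the DMSO sums were 243, 264 and 605 at 27°C, all above the 55.9, 66.1 and 35.9 at 22°C. In Heatin seedlings at 7 days the sums were 210, 1093 and 165 at 27°C, against 114, 1713 and 48.1 at 22°C, and at 7 days SESA1, SESA2, SESA3, SESA4, OLEO1 and CRU3 were at 0 in at least 1 sample. The part of seed RNA in the values of the LEA genes was not tested. Of 74 tested genes annotated as LEA proteins, the 4 members included, 12 were called higher and 20 lower at 7 days, and 22 lower and 21 higher at 2 days. Of 18 LEA and desiccation genes on a list that holds none of the members, 8 were called higher and 1 lower at 7 days, and 1 lower and 6 higher at 2 days.

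**Figure D4:**
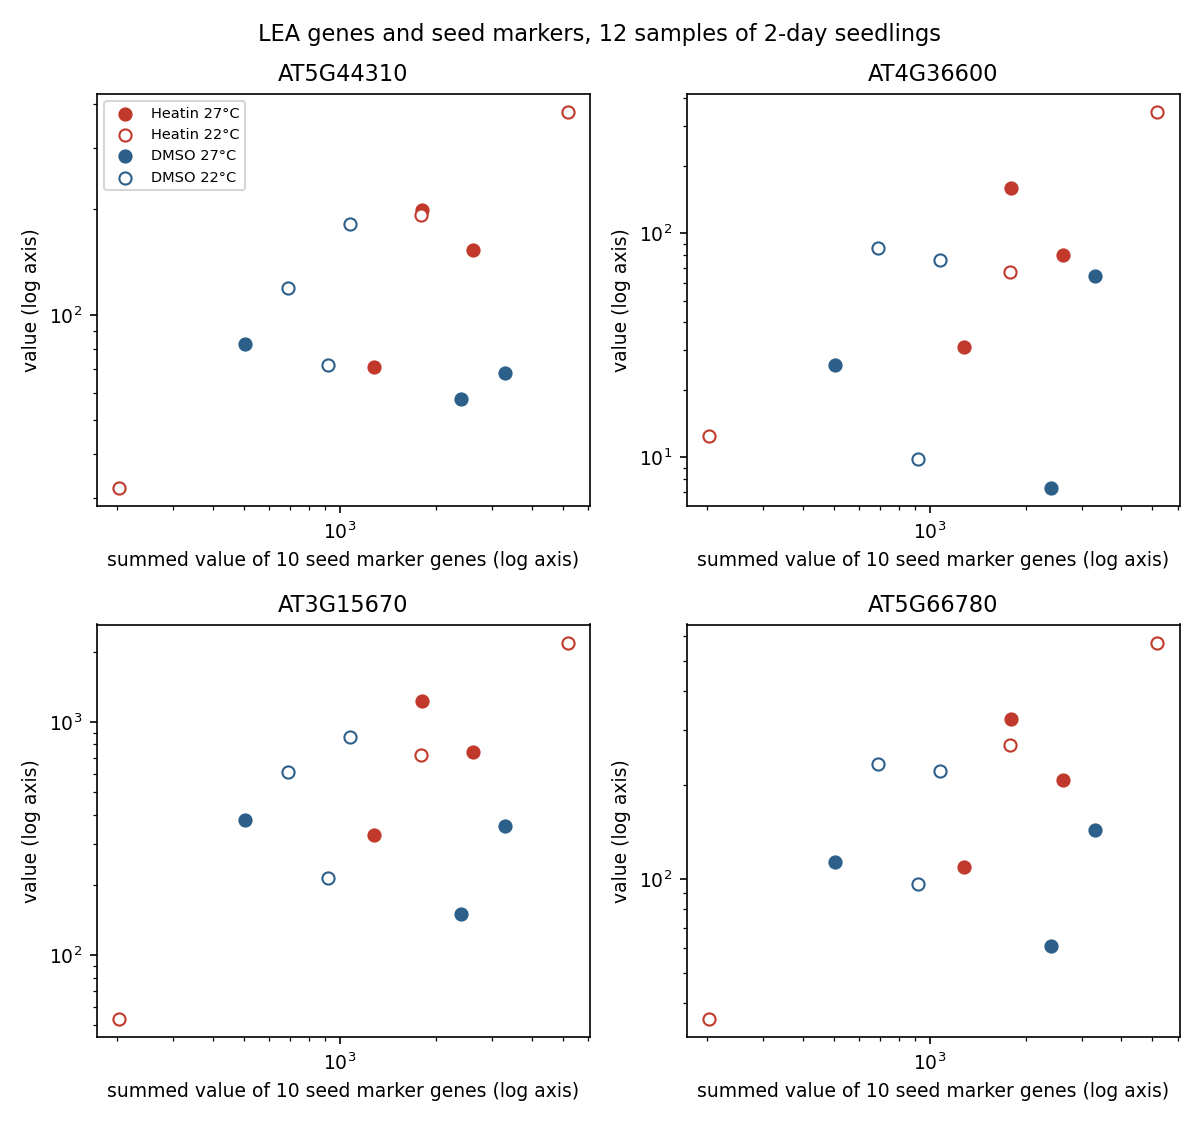
Normalised read count of each LEA member (vertical, log axis) against the summed value of 10 seed marker genes (horizontal, log axis) in the 12 samples of 2-day seedlings. Red is Heatin, blue is DMSO, filled points are 27°C and open points are 22°C. The Heatin 22°C samples with seed marker sums of 5183 and 204 lie at the top right and bottom left of the AT5G44310, AT3G15670 and AT5G66780 panels.

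The remaining members were mostly enzymes and transporters, or proteins of unassigned role. AT1G02470, of the polyketide cyclase and lipid transport superfamily, was low in every Heatin group but 1. AT1G02470 stood at 296, 348 and 298 normalised read counts at 27°C, against 23.01, 48.4 and 50.2 at 22°C, in Heatin seedlings of 7 days. The Heatin samples of AT1G02470 at 2 days held 43.6, 49.7 and 40.9 normalised read counts at 27°C, against 67.3, 77.7 and 54.7 at 22°C. The groups were separate at both ages, with a large change of 3.00 ± 0.25 at 7 days (limma adjusted p = 1.18e-06) and a smaller one of -0.55 ± 0.25 at 2 days (limma adjusted p = 0.0726). It overlaps its neighbour AT1G02475 by 23 bases.

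AT4G15660, annotated to the thioredoxin superfamily, changed by 2.00 ± 0.29 and -0.90 ± 0.29, AT5G52450, a MATE-type efflux transporter, by 1.01 ± 0.13 and -0.79 ± 0.13, and AT1G08845, of the L18p/L5e ribosomal protein family, by 0.64 ± 0.13 and -0.60 ± 0.13. All 3 were called in both directions. AT4G15660 has 4.04% of its 50-base exon windows elsewhere in the genome, and the other 2 overlap a gene on the opposite strand by 64 and 67 bases. AT1G12130, a flavin-binding monooxygenase, changed by 1.76 ± 0.24 and -1.05 ± 0.24, and AT4G24110, annotated as a glutamate dehydrogenase, by 0.87 ± 0.24 and -0.63 ± 0.24, both called in both directions. Over the whole group, 28 of 31 members had no 50-base exon window that occurs elsewhere.

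AT5G17960, with a cysteine- and histidine-rich C1 domain, did not repeat the DMSO direction at 7 days. At 7 days Heatin seedlings had 10.9, 6.33 and 5.71 normalised read counts at 27°C, against 12.2, 8.68 and 12.5 at 22°C for AT5G17960. These were few reads, and the groups overlapped, with a change of -0.52 ± 0.27 that was not called (limma adjusted p = 0.127). It was called lower at 2 days (-0.88 ± 0.27, limma adjusted p = 0.0126). NDB3, an external NAD(P)H dehydrogenase of mitochondria, had 4.68, 12.7 and 14.7 normalised read counts at 27°C, against 16.2, 2.48 and 0 at 22°C at 7 days. These 29 reads at 27°C and 14 at 22°C gave a ratio per unit of depth of 1.68 (95% exact interval 0.858 to 3.44, for counting error only), and the groups overlapped. The fitted change of 1.45 ± 0.73 was not called (limma adjusted p = 0.114). Of the 14 reads, 12 were in 1 sample, without which NDB3 was called higher by 2.52 (limma adjusted p = 0.00169), and it was also called in a fit of all 24 samples (limma adjusted p = 0.0486). NDB3 in Heatin seedlings of 2 days had 400.1, 308 and 302 normalised read counts at 27°C, against 996, 1046 and 618 at 22°C. The 2-day groups did not overlap, yet the change of -1.37 ± 0.73 was not called (limma adjusted p = 0.121), with a standard error larger than that of most members. The fit gives each gene 1 spread over both ages. Without the 7-day sample that held 12 of the 14 reads, the same 2-day change was called lower (limma adjusted p = 0.02). The difference between the ages was called at 2.82 ± 1.03 (limma adjusted p = 0.0489).

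In Heatin seedlings the members' changes with age differed between the temperatures, as the rule had required in DMSO seedlings. At 27°C 12 of 31 members were called higher at 7 days than at 2 days in Heatin seedlings (34.7% of all genes) and 13 lower (34.9% of all genes). At 22°C 1 member, XTH25, was called higher (37.1% of all genes) and 27 were called lower (38.0% of all genes). The median change with age was -0.21 at 27°C and -2.71 at 22°C. The gap between these changes is the same quantity as the difference between the warmth effects. MLS, AT1G29090, BGLU4 and NDB3 fell steeply with age at both temperatures, with changes of -4.83, -6.06, -3.48 and -4.97 on the log2 scale at 27°C and of -6.73, -7.83, -7.04 and -7.79 at 22°C. AAE16, by contrast, changed by -0.05 ± 0.16 with age at 27°C (limma adjusted p = 0.806) and by -2.78 ± 0.16 at 22°C (limma adjusted p = 5.12e-09). NAS3 changed in opposite directions, by 3.16 ± 0.33 at 27°C and -4.15 ± 0.33 at 22°C, both called. AT5G52450 and AT1G08845 were higher with age at 27°C only, by 1.82 ± 0.13 and 1.40 ± 0.13, and were not called at 22°C (0.02 ± 0.13 and 0.17 ± 0.13).

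The group with the highest mean was 7 days at 27°C for 8 members and 2 days at 22°C for 23 in Heatin seedlings. In DMSO seedlings it was 7 days at 27°C for 9 members and 2 days at 22°C for 22, and the rule allows no other group there. The lowest Heatin mean was at 7 days and 27°C for 2 members, at 7 days and 22°C for 24 and at 2 days and 27°C for 5. The 8 members highest in warm 7-day Heatin seedlings were AT1G02470, AT1G08845, GH3.3, PLA2A, AT4G15660, AT5G04390, AT5G52450 and XTH25.

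**Figure D5:**
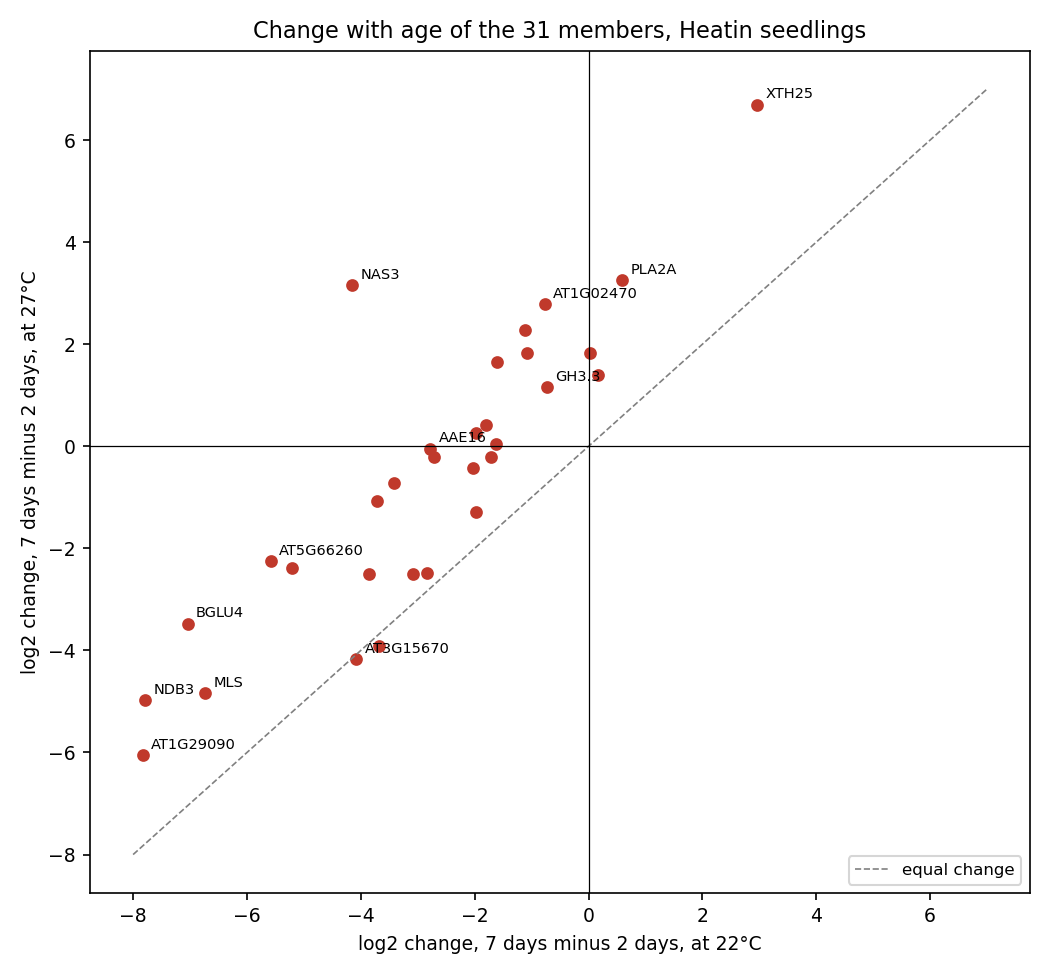
Log2 change with age (7 days minus 2 days) of the 31 members in Heatin seedlings at 27°C (vertical) against 22°C (horizontal), each point 1 gene from the limma fit over 12 samples, with the dashed line at equal change. The axes rest on different samples, and the height above the line is the difference between the warmth effects. XTH25 stands at the upper right and AT1G29090 at the lower left.

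Set side by side, Heatin and DMSO seedlings of the same age and temperature differed in some members and little in others. On the log2(mean + 1) scale, the size of the difference was above 0.5 in 11 of 31 members at 27°C and 10 at 22°C at 7 days, against 3.90% and 2.29% of the 18342 genes, and in 8 at 27°C and 4 at 22°C at 2 days, against 1.08% and 0.992%. Over the members the median size at 7 days was 0.255 in warm seedlings and 0.356 in those at 22°C, beside 0.0854 and 0.0788 over those genes. Leaving out AT5G66260, which was at 0 in a DMSO group, the differences, Heatin minus DMSO, lay between -1.63 and 2.33 for warm 7-day seedlings and between -1.07 and 1.39 for those at 22°C. For 2-day seedlings they lay between -1.01 and 1.44 at 27°C and between -0.47 and 1.30 at 22°C. GH3.3 had the largest at 7 days and 27°C (2.33), with 1.39 at 22°C. BGAL7 was higher with Heatin by 1.18 at 27°C and 1.06 at 22°C at 7 days, where its DMSO samples had 263, 297 and 288 normalised read counts at 27°C, against 94.1, 111 and 108 at 22°C, and no Heatin sample overlapped them at the same temperature. NAS3 was higher with Heatin by 1.49 at 27°C and 0.57 at 22°C at 7 days. The LEA genes were lower with Heatin at 7 days and 27°C, by values of -1.63 (AT5G44310), -1.53 (AT4G36600), -1.14 (AT5G66780) and -1.10 (AT3G15670), and AT5G17960 by -1.43 and AT3G21380 by -1.20. The DMSO means in these differences are those the rule used, and some members had few reads. The members' counts above 0.5 and median sizes therefore cannot be read as a result against the values over all genes. Since the DMSO samples chose the members, these differences were not tested. The warmth change computed in this way in Heatin seedlings was within 0.5 of the DMSO value for 17 members at 7 days and for 26 at 2 days.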

How the data were processed

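RNA was measured in 24 samples of whole seedlings by single-end sequencing of 50 bases. Per the paper's methods, the authors aligned reads to TAIR10 with TopHat2, counted them per gene with HTSeq without regard to strand and without CPuORF annotations, and divided the counts by a depth factor of DESeq. The deposited values are this depth-adjusted signal, here called normalised read counts, for 33540 genes and 5 summary lines per sample, which were left out. In every sample 100% of values were whole multiples of 1 read within 0.01, which gave the reads per sample (median 34387203.5). Precision at low values is limited by counting error, and intervals cover that error only. The whole-read counts recovered were used only in alternatives and for ratios of genes with few reads.

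The members and gene lists were chosen with earlier results of these data known. log2(value + 1) of the 12 Heatin samples was fitted with limma 3.58.1 in R 4.3.3 (lmFit, eBayes with a mean-variance trend) over 23408 genes with a mean of at least 1, with 1 mean per group and no covariate, and p-values were adjusted by Benjamini-Hochberg over all of them. Genes with an adjusted p below 0.1 are called. The fit was tested on simulated data. The pseudocount makes fold changes of low genes look smaller than they are. The lists fixed by symbol took 2 wrong genes that carry the symbols RAB18 and SAUR21; the dehydrin was put in for RAB18 and the other was left out.

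With fewer than 60 members, each could be named; full values were given for those with the largest changes, the highest levels, a place on a list or a position near a limit. Alternatives were pseudocounts of 0.5 and 5, no filter, a mean of at least 10, TMM rescaling, a fit of all 24 samples, edgeR 4.0.16 and DESeq2 1.42.0 on recovered reads, a replicate block, a threshold of 0.05, and each sample left out in turn. Names, exons, promoters and coordinates came from RefSeq TAIR10.1, in which 32835 of 33540 identifiers and all 31 members were found, while the files use TAIR10. Tables were made with Python 3.11.15 and pandas 2.3.3.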

Additional observations from a re-analysis of the deposited data

Results flagged for a closer look

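The effect of warmth differed between the ages in 25 members in Heatin seedlings, by the test of the difference itself (limma, adjusted p below 0.1), and in each of them it was higher at 7 days than at 2 days. Since the members were selected in DMSO seedlings for such a difference, this repeats the selected measure in samples that were not used to select them. At 2 days and 22°C the third sample was the lowest of its group both with DMSO and with Heatin in most members. MLS had 75706, 73845 and 48420 there with DMSO and 89494, 71205 and 57362 with Heatin. At 7 days and 27°C same-numbered samples had the same order in some members and not in others. AT1G33790 had 1390, 2094 and 944 with DMSO and 1830, 2348 and 1138 with Heatin. GH3.3 had 943, 776 and 1225 with DMSO and 5272, 5387 and 4149.7 with Heatin. Whether such samples shared a batch was not tested, so the repeat may not be independent of the selection. Groups of 3 samples were too small to look for single outlying samples.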

How the results depend on the processing

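The rule took in 64 genes with a minimum mean of 10, 17 with 100 and 12 with a change of at least 1 on the log2 scale, 29 to 37 with other pseudocounts, group medians or upper-quartile rescaling, and 24 to 41 with 1 DMSO sample left out. The counts of members called in Heatin seedlings stayed within 1.5 times the reported ones under all alternatives run. Without 1 Heatin sample they were 20 to 23 higher at 7 days, 22 to 25 lower at 2 days, 18 to 22 both, 25 to 26 for the difference, and 24 to 26 at 27°C and 26 to 28 at 22°C for age. At a threshold of 0.05 they were 19, 23, 17, 25, 24 and 26 in that order. Same-numbered Heatin samples of the same age had correlated deviations of 0.0167 to 0.192 over 6 pairs (mean 0.0997, 2 above 0.1). The mean was -0.0498 over 12 pairs of unlike number. These samples were not treated as paired in the main fit, and a shared batch remains possible. Heatin samples were not compared in this way with same-numbered DMSO samples. With the replicate block 23 members were called higher at 7 days, 25 lower at 2 days, 22 both, 25 for the difference, 25 for age at 27°C and 28 at 22°C.

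Changes in sign were confined to values of members that were not called. At 2 days GH3.3 was -0.00091 with TMM rescaling and -0.052 to 0.10 without 1 sample. On recovered reads AT3G15670 was -0.37 by edgeR and -0.36 by DESeq2, AT4G36600 -0.68 and -0.67, and AT5G66780 -0.45 and -0.45 at 2 days, and AT5G66780 was 0.057 by edgeR at 7 days. Without 1 sample the 2-day values ranged from -0.90 to 1.76 for AT3G15670, -1.05 to 1.30 for AT4G36600, -1.06 to 0.70 for AT5G44310 and -0.999 to 0.98 for AT5G66780, and the 7-day values from -0.045 to 0.89 for AT3G15670, -0.45 to 0.32 for AT5G66780, -0.38 to 0.12 for AT3G21380 and -0.56 to 0.30 for AT1G44830. The cause was not tested. Calls at 7 days were lost without 1 sample in AT1G29090 (range 0.25 to 0.72), PLA2A (0.78 to 1.49) and ATSDI1 (0.40 to 1.12), and at 2 days in AT1G02470 (-0.69 to -0.44) and AT4G24110 (-0.75 to -0.40). The 7-day call of AT1G29090 was also lost in the fit of all 24 samples (adjusted p = 0.365), and that of BGLU4 with edgeR (adjusted p = 0.101). Calls were gained at 7 days by AT5G44310 (adjusted p = 0.0704) and NDB3 (adjusted p = 0.0486) in the fit of all 24 samples, by PYL6 with the replicate block (adjusted p = 0.0702), and without 1 sample by these 3 (0.87 to 1.75, 0.46 to 2.52 and 0.14 to 0.55) and, as lower, by AT5G17960 (-0.77 to -0.36). NDB3 and AT1G44830 were called lower at 2 days by edgeR (adjusted p = 1.34e-04 and 0.0343) and by DESeq2 (adjusted p = 0.00679 and 0.0483). Both were also called lower at 2 days with a pseudocount of 5, and NDB3 in the fit of all 24 samples. AT1G44830 was so called with a mean of at least 10, TMM rescaling and the replicate block. Without 1 sample, the 2-day call was gained in 4 fits for AT1G44830 and 2 for NDB3.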
